A study of Mus musculus with 2 samples.

Results

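Intestinal goblet cells were examined in the 2 single-cell libraries of a study of stromal Lkb1 loss and gastrointestinal polyps in mice. A barcode is the tag that marks the RNA of 1 droplet. Goblet barcodes were selected on measured counts: at least 3 UMIs of Muc2, and at least 10 UMIs of Tff3 and Fcgbp together. A UMI is a molecular identifier, and each UMI stands for 1 captured transcript. Barcodes under 500 UMIs, under 250 genes or with mitochondrial genes above 25% of UMIs were left out beforehand. By this rule 78 of 11712 kept barcodes were goblet barcodes, 74 of 3252 in the WT library and 4 of 8460 in the Lkb1_Het library. Because the members were chosen by Muc2, Tff3 and Fcgbp, the values of these 3 genes are given as a description only.

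The WT library held normal duodenum pooled from 3 Lkb1+/+ mice with Myh11-Cre/ERT2, and the Lkb1_Het library, called the polyp library below, held polyps pooled from 3 Lkb1flox/+ mice with the same transgene. Both genotypes thus carried the Cre, whose Myh11 promoter is that of a smooth muscle myosin and not of epithelium. The source label of both libraries reads duodenum, and where in the gut the polyps lay is not settled by it. With 1 library per group and no way to tell the 3 mice apart, no difference between groups could be tested. Intervals are 95% limits that cover counting error only, exact binomial for shares and ratios and exact Poisson for levels. Goblet barcodes of WT were deep, with 1846 to 38125 UMIs (median 15871), a median of 3287.5 genes and a median mitochondrial share of 7.93%. The other Epcam-positive barcodes of that library, those with at least 1 UMI of the epithelial gene Epcam outside the gate, had a median of 4556 UMIs. In total 44 barcode sequences occurred in both libraries, 10 of them among kept barcodes and 0 among goblet barcodes.

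Goblet cells are the mucus-secreting cells of the intestinal epithelium. They arise from crypt progenitors in which Atoh1 is switched on and Notch signalling is low, and Spdef drives their maturation. Their main product, the gel-forming mucin Muc2, is folded in the endoplasmic reticulum (ER), densely O-glycosylated in the Golgi, stored in granules and released to form the mucus layer, together with trefoil peptides and other granule proteins.

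Goblet barcodes made up 2.28% (1.79–2.85) of kept WT barcodes and 0.0473% (0.0129–0.121) of kept polyp barcodes, a ratio of 48.1 (18.0–181). Among Epcam-positive barcodes the share was 5.52% (73 of 1322) in WT and 0.0832% (4 of 4805) in the polyp. Any Muc2 UMI at all was found in 109 Epcam-positive barcodes of WT (8.24%) and in 26 of the polyp (0.541%), so a gate on 1 UMI gave the same order. Fewer goblet cells and less Muc2 RNA per goblet cell cannot be told apart in these counts.

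Barcodes close to the gate's limits, inside and outside, differed widely in how much of other goblet products they carried. In WT, 7 goblet barcodes held 3 to 5 Muc2 UMIs, with 13 to 279 Tff3 plus Fcgbp, 6 to 304 Spink4 and 1 to 346 Agr2 UMIs. Just outside lay a barcode of 9680 UMIs with 2 Muc2, 190 Tff3 plus Fcgbp, 97 Spink4 and 87 Agr2 UMIs. Another of 20725 UMIs had 1 Muc2, 202 Tff3 plus Fcgbp and 180 Spink4 UMIs. The other WT barcodes just outside held fewer Spink4 UMIs. Among them, a barcode of 8497 UMIs had 17 Spink4 and 6 Agr2 UMIs, and a barcode of 812 UMIs had 4 and 8. The polyp library held a barcode just outside with 8 Muc2, 7 Tff3 plus Fcgbp, 212 Spink4 and 130 Agr2 UMIs. Agr2 was also high in other Epcam-positive barcodes of the polyp, as given below, so there it does not mark goblet cells. In all, 34 WT and 66 polyp barcodes passed on Tff3 plus Fcgbp and failed on Muc2, and 2 barcodes of either library did the reverse.

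The marker genes lie on several chromosomes (mm10 gene spans): Muc2 at chr7:141690340-141754693, Fcgbp at chr7:28071236-28120862, Tff3 at chr17:31125306-31129646, Spink4 at chr4:40920052-40931395 and Guca2a at chr4:119637704-119639471. The 250 bases before the start site of Muc2, which defines the cell, and of Guca2a, a goblet gene the gate did not use, are printed to show the sequence in front of genes high in goblet barcodes. Both are from RefSeq on build GRCm38.p6, read 5′ to 3′ on the gene's strand. Capitals mark matches, on either strand, to CAGCTG or CATCTG (E-boxes, letters bound by basic helix-loop-helix factors such as Atoh1) or TGTTTAC (forkhead factors such as Foxa1 and Foxa3). They also mark TATAAA, which was searched on the gene's strand only, here and in the shares below.
Muc2 upstream, chr7:141690090-141690339, plus strand: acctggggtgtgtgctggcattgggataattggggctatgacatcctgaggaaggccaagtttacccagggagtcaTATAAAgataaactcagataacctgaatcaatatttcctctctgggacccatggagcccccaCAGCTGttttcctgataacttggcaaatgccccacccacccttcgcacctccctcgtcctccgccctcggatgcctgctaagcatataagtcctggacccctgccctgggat
Guca2a upstream, chr4:119637482-119637731, plus strand: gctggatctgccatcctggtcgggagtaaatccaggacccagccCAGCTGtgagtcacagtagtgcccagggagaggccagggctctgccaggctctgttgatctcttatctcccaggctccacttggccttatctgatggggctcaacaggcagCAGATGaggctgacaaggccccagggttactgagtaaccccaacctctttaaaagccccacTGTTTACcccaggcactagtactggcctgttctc
In the Muc2 stretch the capitals are TATAAA, starting 174 bases before the start site, and CAGCTG, starting 112 bases before it. In the Guca2a stretch CAGCTG starts 206 bases before the start site, the other E-box, read on the opposite strand, 95 bases before it, and the forkhead letters 34 bases before it. Over a window from 250 bases before to 50 after the start site, CAGCTG was present in 7 of 26 promoters (26.9%) of the 25 genes that lead the goblet barcodes, against 16.3% of all 32851 promoters. Of those 25 genes, 20 were in the table. CATCTG was present in 15.4% against 17.2%, TGTTTAC in 3.85% against 3.65%, TTTATNG (caudal-type factors such as Cdx1 and Cdx2) in 15.4% against 10.9%, and TATAAA in 15.4% against 8.32%. Such matches describe letters and show no binding.

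Of the 5 markers, Muc2, Tff3, Fcgbp and Spink4 were found in every WT goblet barcode, and Guca2a in 58 of 74. Per WT goblet barcode Muc2 had 3 to 101 UMIs (median 17.5), Tff3, a trefoil peptide of mucus, 5 to 997 (median 259) and Fcgbp, a large mucus protein, 3 to 552 (median 66). Spink4, a Kazal-type protease inhibitor homologue of goblet granules that the gate did not use, was found in all 74 WT goblet barcodes at 4 to 1647 UMIs (median 510.5). Its summed level was 34788 CPM, the UMIs of the gene scaled to 1e+06 UMIs of the set of barcodes, against 128 CPM in other Epcam-positive barcodes, a ratio of 272 (260–285). Guca2a, which encodes guanylin, a peptide that activates the intestinal guanylate cyclase receptor, was found in 58 of 74 barcodes at 0 to 83 UMIs (median 12), 1403 CPM against 12.9 CPM. Agr2, an ER disulfide isomerase needed for Muc2 production, was found in all 74 at 1 to 718 UMIs (median 127.5), 11698 CPM against 350 CPM. Spink4 and Guca2a, the given markers that the gate did not use, thus had higher summed levels in WT goblet than in other Epcam-positive barcodes. Single barcodes could be poor in them. A WT goblet barcode of 28361 UMIs held 30 Spink4 and 3 Guca2a UMIs beside 79 of the crypt gene Olfm4. Another, of 24377 UMIs, held 22, 0 and 53.

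**Figure D1:**
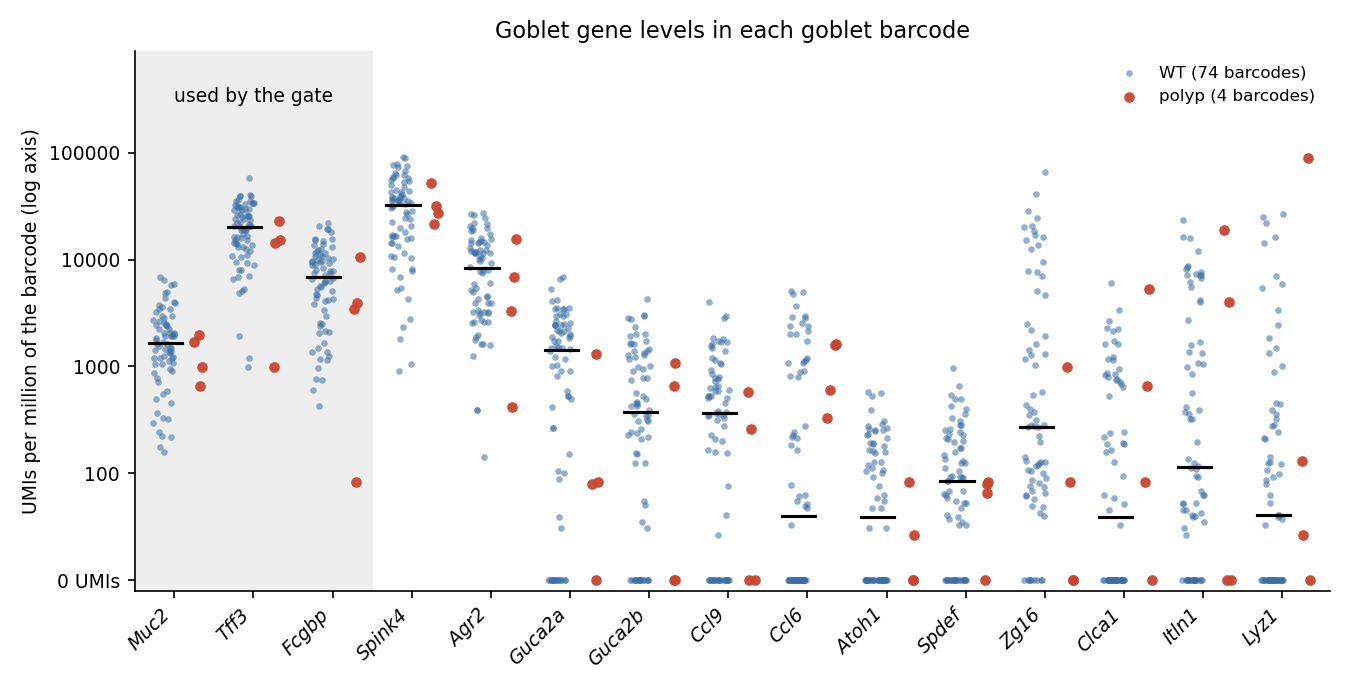
Level of 15 genes in each goblet barcode, as CPM of the barcode's own UMIs on a log axis, with 74 WT barcodes in blue, 4 polyp barcodes in red and the WT median as a black line; barcodes with no UMI sit at the bottom. Spink4 and Agr2 were present in all WT barcodes, while Zg16, Clca1, Itln1 and Lyz1 ran from no UMI to levels above those of Muc2 in the median barcode.

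Depth differed between the sets, so shares of barcodes were compared at equal depth. After every barcode was thinned to 1000 UMIs, Spink4 was found in 97.3% of WT goblet barcodes, 11.6% of other Epcam-positive barcodes and 9.90% of T cell barcodes. T cells, taken as barcodes with a Cd3 gene and no Epcam, should make none of these products and had a median of 3018.5 UMIs before thinning. Guca2a was found in 55.4%, 1.58% and 0.291% of the 3 sets. Tff3 was found in 100%, 7.39% and 5.68%, and Muc2 in 79.7%, 0.739% and 0.873%. The thinning left out 302 other Epcam-positive and 91 T cell barcodes and 0 goblet barcodes. The shares of other Epcam-positive and T cell barcodes were close for Spink4, Tff3 and Muc2, while mean thinned UMIs per barcode were 0.239 against 0.115 for Spink4 and 0.190 against 0.0626 for Tff3.

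Across genes, goblet barcodes were set against the 1249 other Epcam-positive barcodes of the WT library. Of 11876 genes with at least 20 UMIs over both sets, 1283 (10.8%) were higher in goblet barcodes by 2-fold or more with an interval clear of 1, and 1426 (12.0%) were lower. Such genes are called higher or lower below, as a description of this library and not as a test. The median gene lay 0.17 above zero on the log2 scale, and relative to it 925 genes were higher and 1709 lower, so higher genes made up 47.4% of calls as counted and 35.1% relative to the median gene. The other Epcam-positive barcodes hold enterocytes, glands, gastric-type mucous cells and hormone cells, and also plasma and T cell RNA, with Jchain at 6599 CPM and Cd3g at 139 CPM.

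The 25 leading genes, taken in the order of the interval bound closer to 1, included the gate genes at 579 (423–813) for Muc2, 146 for Tff3 and 56.5 for Fcgbp. Beside Spink4, Guca2a at 109 (93.9–127) and Agr2 at 33.4, they included the chemokines Ccl6 at 406 (279–614) and Ccl9 at 152 (117–200). Ccl6 was found in 38 of 74 barcodes at 0 to 107 UMIs and Ccl9 in 53 of 74 at 0 to 64. Tpsg1, a transmembrane tryptase, had 170 UMIs in 51 goblet barcodes and 5 UMIs in all other Epcam-positive barcodes, a ratio of 453 (190–1414). Atoh1, the master regulator of the secretory lineage, was found in 39 of 74 goblet barcodes with 139 UMIs, against 8 UMIs in the 1249 others, a ratio of 232 (114–547). Others in the 25 were Hpd at 133, an enzyme of tyrosine breakdown, Rep15 at 59.0, a partner of the small GTPase Rab15, and Rab15 itself at 32.3, together a pair of endosome recycling proteins. Mmp7 at 58.7, the protease matrilysin, Itln1 at 29.1, the lectin intelectin, and Defa17 at 16.9, a Paneth cell defensin, were found in 42, 56 and 26 of the 74 barcodes. The rest were Rap1gapos, Ano7, Mt3, Ramp1, Selenom, Rasa4, Pdia5, Car8 and Cbfa2t3, between 20.4 for Cbfa2t3 and 45.1 for Rap1gapos.

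**Figure D2:**
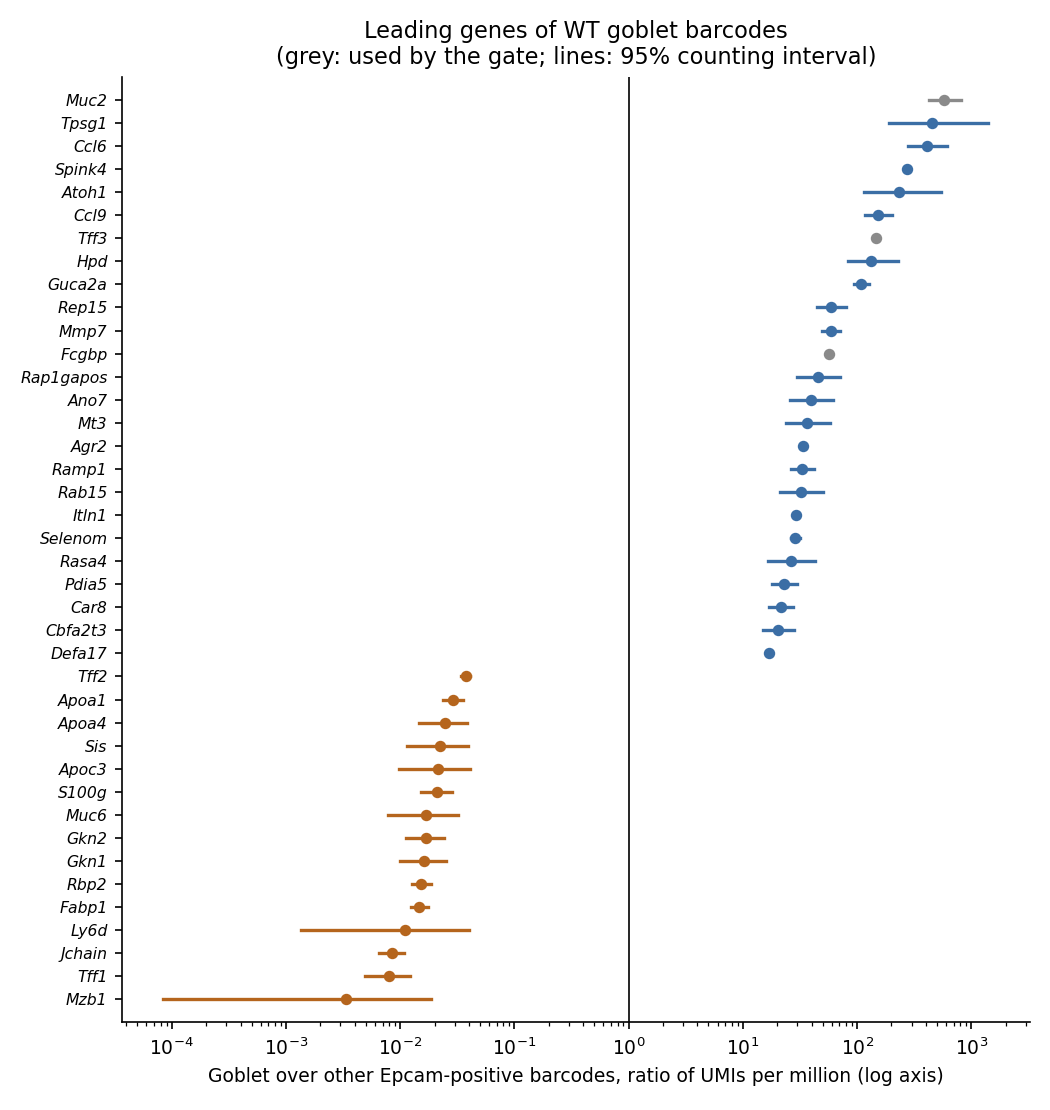
Ratio of summed CPM in WT goblet barcodes over other Epcam-positive WT barcodes (log axis, points, with 95% counting intervals as lines) for the 25 leading higher and 15 leading lower genes; grey marks the gate genes. Higher genes ran from 16.9 for Defa17 to 579 for Muc2, and Tff1 was 125-fold lower.

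All gene lists below were chosen with earlier results of these data known. Over all genes 10.8% were higher and 12.0% lower, the shares to set beside the counts of each list. Secreted goblet products were taken as a list of known goblet genes. Of 14 measured members 11 were higher, the gate genes included, and 1 was lower, with a median log2 ratio of 4.96 against 0.17 over all genes. Clca1, a metalloprotease that processes mucus, was found in 38 of 74 barcodes at 0 to 146 UMIs, 555 CPM against 54.6 CPM, a ratio of 10.2 (9.14–11.3). Zg16, a lectin that aggregates Gram-positive bacteria, had a ratio of 5.71 (5.54–5.88), but 69.8% of its goblet UMIs lay in 5 barcodes. Reg4 at 1.36 and Ang4 at 0.590 were not past 2-fold, and Wfdc2 was 16.7-fold lower. Retnlb, the goblet resistin-like protein induced by type 2 cytokines, had 14 UMIs in 5 of the 74 barcodes and 0 UMIs in other Epcam-positive barcodes, and fell under the 20-UMI minimum.

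Among 11 measured mucins and trefoil peptides 3 were higher and 6 lower, with a median log2 ratio of −2.55. Beside the gate genes Muc2 and Tff3, the membrane mucin Muc3a was higher at 9.70 (7.41–12.7). The membrane mucin Muc13 was found in 73 of 74 goblet barcodes at 759 CPM against 518 CPM, a ratio of 1.46 (1.36–1.57). The gastric-type partners were low in goblet barcodes: Tff1 was 125-fold lower (18.5 against 2317 CPM), the gland mucin Muc6 59.0-fold lower and Tff2 26.8-fold lower. Muc5ac, the gastric surface mucin, had 0 UMIs in the 74 goblet barcodes and 72 UMIs in the others, at least 1.80-fold lower against a floor of 3 UMIs over the group.

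The ER folding list had 28 measured members, of which 19 were higher and 0 lower, with a median log2 ratio of 1.45. Hspa5, the ER chaperone BiP, was found in all 74 barcodes at 3 to 110 UMIs (median 32), 2424 CPM against 803 CPM, a ratio of 3.02 (2.90–3.15). Ern2, the ER stress sensor IRE1-beta restricted to mucous epithelia, stood at 21.4 (14.9–31.0), whereas its widely expressed relative Ern1 stood at 1.39 (0.539–3.03). The disulfide isomerases spread widely, with Pdia5 at 22.9, Pdia6 at 3.77, Pdia3 at 3.31, Pdia4 at 2.60 and P4hb at 1.31. Dnajc10, a disulfide reductase, was at 7.57, Hyou1 at 4.28 and Manf at 2.93. Xbp1, the transcription factor of the unfolded protein response, was at 1.28 (1.11–1.47) and Hsp90b1 at 1.99 (1.87–2.11), neither past 2-fold. In T cells Hspa5 was at 556 CPM, Manf at 192 CPM and Pdia5 at 0.774 CPM.

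The upstream stretches of 3 genes of this list are printed because they hold the ER stress element, CCAAT, 9 bases of any kind and CCACG, which ATF6 and XBP1 are known to use. Capitals mark the 2 ends of the element on either strand, and TGACGTG, the core of an XBP1 and ATF6 site, and CATCTG where present.
Hspa5 upstream, chr2:34771840-34772089, plus strand: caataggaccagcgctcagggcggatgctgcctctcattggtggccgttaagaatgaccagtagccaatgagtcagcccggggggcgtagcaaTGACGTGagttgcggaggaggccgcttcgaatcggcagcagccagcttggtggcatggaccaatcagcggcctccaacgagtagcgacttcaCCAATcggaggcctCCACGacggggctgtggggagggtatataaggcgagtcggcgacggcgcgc
Creld2 upstream, chr15:88819396-88819645, plus strand: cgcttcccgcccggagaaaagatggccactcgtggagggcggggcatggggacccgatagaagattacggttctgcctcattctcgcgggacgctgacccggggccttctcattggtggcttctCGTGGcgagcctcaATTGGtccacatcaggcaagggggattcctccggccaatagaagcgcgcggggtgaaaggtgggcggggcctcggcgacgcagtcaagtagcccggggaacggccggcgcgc
Hsp90b1 upstream, chr10:86705445-86705694, minus strand: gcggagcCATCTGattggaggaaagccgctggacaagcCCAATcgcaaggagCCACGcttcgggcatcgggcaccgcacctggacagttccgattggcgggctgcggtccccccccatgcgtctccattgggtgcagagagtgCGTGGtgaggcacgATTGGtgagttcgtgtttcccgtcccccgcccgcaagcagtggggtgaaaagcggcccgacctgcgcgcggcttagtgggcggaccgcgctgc
The element starts 65 bases before the start site in Hspa5 and 126 bases before it on the other strand in Creld2, and Hsp90b1 has 2 copies, at 212 and, on the other strand, 107 bases. Of 30 listed genes 25 were in the table, and 8 of their 25 promoters (32%) held the element, against 39 of 32851 (0.119%) of all promoters and 0 of 26 promoters of the 25 leading goblet genes. The 8 genes were Calr, Canx, Creld2, Dnajc3, Ero1b, Hsp90b1, Hspa5 and Pdia6. Their ratios in goblet barcodes ran from 1.43 for Dnajc3 to 3.77 for Pdia6 among the 7 measured, with Canx at 1.49, Hsp90b1 at 1.99, Creld2 at 2.59, Calr at 2.88 and Hspa5 at 3.02. Pdia5 and Agr2, which have higher ratios than these, held no match to the element in this window, and Ern2 was not in the table.

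Further along the secretory path, 11 of 26 measured ER to Golgi transport genes were higher and 1 lower, with a median log2 ratio of 0.86. Kdelr3, a receptor that returns ER proteins, was at 13.6 (8.91–20.8), whereas Kdelr2 was at 2.80 and Kdelr1 at 1.35. Sar1b, a GTPase needed for chylomicron export from enterocytes, was the lower one at 0.359 (0.289–0.441). The O-glycosylation list had 18 of 30 higher and 2 lower, with a median log2 ratio of 1.49. The initiating transferases Galnt5 at 18.4 (10.1–34.0) and Galnt12 at 16.9 (13.3–21.7) led it, followed by St3gal1 at 13.9. Galnt7, Galnt3 and Galnt10 were between 4.78 and 5.55, while Galnt1 at 1.06 and Galnt2 at 0.876 were not past 2-fold. C1galt1c1, the chaperone of the core 1 enzyme, was at 7.98 and C1galt1 itself at 3.28. Gcnt3, the mucin core 2 and core 4 branching enzyme, was at 6.28, and Gcnt4 had 0 UMIs against 136. St3gal4, a sialyltransferase, was 9.44-fold lower.

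Of 16 measured granule and exocytosis genes 9 were higher and 1 lower, with a median log2 ratio of 1.54. They included the Rab27 effectors Sytl2 at 17.4 and Sytl4 at 14.7, the granule GTPases Rab27b at 11.2, Rab27a at 7.54 and Rab3d at 6.60, the actin-severing protein Scin at 11.0 and the calcium sensor Syt7 at 5.46. The fusion proteins Vamp8 at 0.794 and Stx3 at 0.660 were not past 2-fold. Nlrp6, an inflammasome sensor linked to goblet secretion in colon, was 9.04-fold lower (14.1 against 127 CPM). The ion transport list was split, 6 of 14 higher and 5 lower, with a median log2 ratio of 0.09. Ano7 at 39.6, Car8 at 21.4, the Golgi calcium pump Atp2c2 at 17.4, Slc12a8 at 13.0, Clca1 and the chloride importer Slc12a2 at 2.21 were higher. The channel Cftr was 2.63-fold lower (17 UMIs against 596), the anion exchanger Slc26a3 28.9-fold lower, and the sodium exchanger Slc9a3 had 0 UMIs against 260.

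Of 20 regulators of the secretory lineage 13 were higher and 1 was lower, with a median log2 ratio of 1.58. Spdef was found in 53 of 74 goblet barcodes at 0 to 9 UMIs, 119 CPM against 7.20 CPM, a ratio of 16.5 (12.7–21.5). The ER-linked factors Creb3l4 at 15.3 and Creb3l1 at 13.0, Foxa3 at 14.1, Gfi1 at 11.3 and Bhlha15 at 8.63 followed. The Notch ligands Dll4 at 13.3 (8.71–20.4) and Dll1 at 11.3 (8.86–14.3), by which secretory cells hold their neighbours out of the lineage, were found in 31 and 48 of the 74 barcodes. In the Notch response list 0 of 6 measured genes were higher and 1 lower, and Hes1, the target that represses Atoh1, was at 1.70 (1.36–2.11). Over all genes 10.8% were higher and 12.0% lower, so such counts among 6 genes do not set the list apart. Klf4, a differentiation factor, was at 1.97 (1.77–2.19), just under 2-fold. Neurog3, the endocrine regulator, had 0 UMIs against 53 in the others. The others summed to 15146228 UMIs and the goblet barcodes to 1136085, so few goblet UMIs would be due at an equal level. Guca2b, uroguanylin, was found in 57 of 74 goblet barcodes with a ratio of 2.93 (2.72–3.16), and Gucy2c, the receptor of both peptides, was at 0.696 (0.483–0.973).

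**Figure D3:**
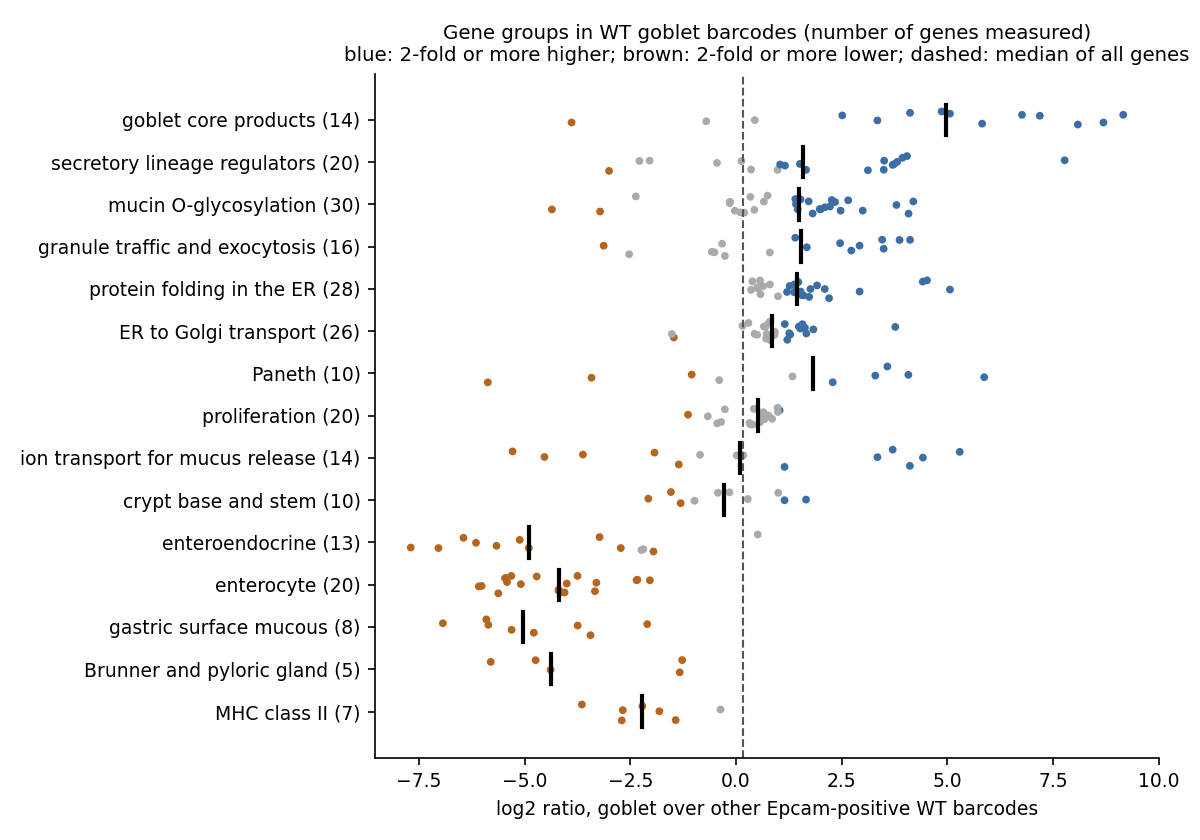
Each point is 1 measured gene, placed by its log2 ratio of summed CPM in WT goblet over other Epcam-positive WT barcodes and coloured by call (higher, lower or neither); black bars are group medians and the dashed line is the median of 0.17 over all genes. The medians of goblet products (4.96), lineage regulators (1.58) and ER folding genes (1.45) lie right of that line, and the enterocyte group, with all 20 genes lower, lies left of it.

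Most regional factors were not past 2-fold: Cdx1 at 1.81 (1.45–2.25), Cdx2 at 0.942 (0.701–1.24), Gata4 at 0.770, Gata6 at 1.04 and Hnf4a at 0.897. Hnf4g was 5.39-fold lower and Pdx1 lower at 15.8 against 31.7 CPM, and Foxa3 alone of 12 measured was higher. Among crypt genes Sox9 at 3.14 and Slc12a2 were higher and Olfm4, Ascl2 and Cd44 lower, Olfm4 by 2.49-fold. The antimicrobial list was split, 5 of 16 higher and 5 lower. Its higher members were Ccl6, Ccl9, Itln1, Zg16 and Duox2, and Reg3g was 39.4-fold and Reg3b 13.3-fold lower. Lypd8, a protein that keeps flagellated bacteria off the epithelium, was found in 71 of 74 goblet barcodes at 1665 CPM against 2630 CPM, a ratio of 0.633. MHC class II genes were lower in 6 of 7, with Cd74 4.65-fold lower, and class I genes in 6 of 12, with H2-K1 at 1.24. Of 7 measured type 2 cytokine genes, Clca1 was higher and Stat6 lower, and the receptor chains Il4ra at 1.43 and Il13ra1 at 1.20 were neither. Over all genes 10.8% were higher and 12.0% lower, near the counts of the regional and type 2 cytokine lists. Immediate-early and heat shock genes, which also respond to tissue digestion, were higher in 7 of 19 and lower in 2, with Atf3 at 3.28 and Egr1 at 2.57. In that list the summed level was 18875 CPM in goblet barcodes, 10752 CPM in the others and 20704 CPM in T cells, and its part in other results was not tested.

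Stk11, which encodes LKB1, was at 37.0 CPM in WT goblet barcodes and 28.5 CPM in the others, a ratio of 1.30 (0.923–1.79), with 1 UMI in the 4 polyp goblet barcodes. Of 18 measured LKB1 partners and downstream kinases 4 were higher, Sik2, Sik1, Prkaa1 and Prkaa2, at 2.06 to 2.42, each with 10 to 31 UMIs in goblet barcodes; over all genes 10.8% were higher.

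Markers of enterocytes, hormone cells, gastric surface cells and Brunner glands were mostly lower in goblet than in other Epcam-positive barcodes. Paneth genes were not, and are described further below. All 20 enterocyte genes were lower, with a median log2 ratio of −4.20, and the fatty acid binding protein Fabp1 was at 120 CPM in goblet barcodes, 8160 CPM in the others and 283 CPM in T cells. The list summed to 1760 CPM in goblet barcodes, 30083 CPM in the others and 1292 CPM in T cells. After thinning Fabp1 was found in 14.9% of goblet and 20.7% of T cell barcodes, and Fabp2 in 55.4% and 18.8%. Of 13 measured enteroendocrine genes 10 were lower, with Chga 88.8-fold lower, and Neurod1, Isl1, Pax6 and Ghrl at 0 UMIs. Secretin, Sct, was apart from them: it was found in 52 of 74 goblet barcodes at 0 to 18 UMIs, 219 CPM against 154 CPM in the others and 17.0 CPM in T cells. All 8 gastric surface genes, all 5 Brunner gland genes, all 12 T and NK cell genes and 6 of 7 plasma and B cell genes were lower. The T and NK list summed to 291 CPM in goblet barcodes against 52081 CPM in T cells, the plasma list to 849 CPM against 71016 CPM in other Epcam-positive barcodes. The low T and NK list depended on the comparison barcodes: against those with at least 5 Epcam UMIs and no Ptprc its median log2 ratio was 0.43 in place of −3.45.

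**Figure D4:**
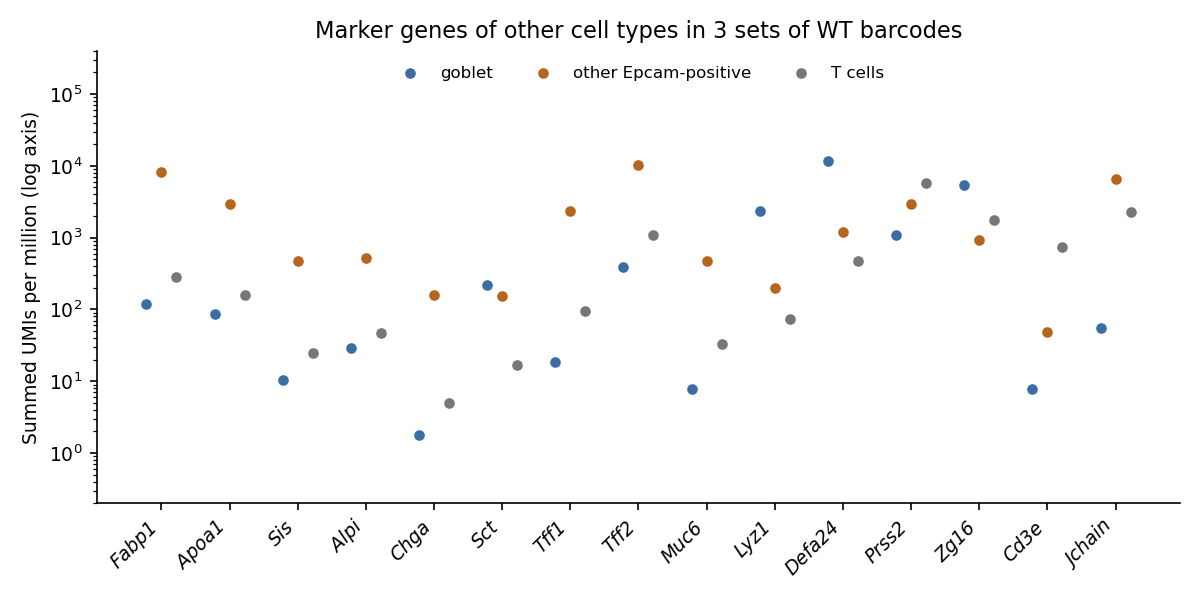
Summed CPM (log axis) of marker genes of other cell types in WT goblet barcodes (blue), other Epcam-positive barcodes (orange) and T cells (grey). The genes lowest in goblet barcodes included Fabp1, Apoa1, Sis, Alpi, Tff1, Tff2, Muc6 and Jchain, while Sct, Lyz1, Defa24 and Zg16 were highest there. In goblet barcodes 5 of 74 held 81.5% of Lyz1, 88.0% of Defa24 and 69.8% of Zg16 UMIs, not the same 5 for each.

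Pancreatic acinar RNA was spread through the WT library. The acinar list without Zg16 made up 3.55% of UMIs in T cells, 1.75% in other Epcam-positive barcodes and 0.268% in the goblet barcodes used for the subsets below. One WT goblet barcode, the deepest, held 4679 acinar UMIs among 38125 (12.3%), with 6 Muc2, 192 Tff3, 206 Spink4 and 297 Zg16 UMIs, and the next highest share was 3.21%. Another, of 7298 UMIs, carried 33023 CPM of T and NK cell genes, including 8 Cd3e UMIs, beside 4 Muc2 and 99 Tff3 UMIs, and the next highest was 792 CPM. Without these 2 barcodes 1255 genes were higher and 1411 lower, and they were set aside for the description of variation among goblet barcodes, which rests on 72 WT barcodes. Only 1 of 74 goblet barcodes held a Ptprc UMI, the T cell one.

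Lyz1, Zg16 and cell cycle genes varied widely among goblet barcodes. The limits used to describe these sets were chosen after the values had been seen, so the genes that set them apart are a description. Of the 72 barcodes 14 held at least 10 Lyz1 UMIs, 20 at least 20 Zg16 UMIs, 8 at least 10 Pcna and Stmn1 UMIs, and 33 none of these. The Lyz1 and Zg16 sets shared 0 barcodes: Zg16 reached 6 UMIs at most in the Lyz1 set, and Lyz1 reached 7 at most in the Zg16 set. Low counts of either gene were common, with medians of 1 Lyz1 and 3 Zg16 UMIs over the 74 WT goblet barcodes. Whether 0 shared barcodes is fewer than sets of 14 and 20 among 72 would share was not tested.

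**Figure D5:**
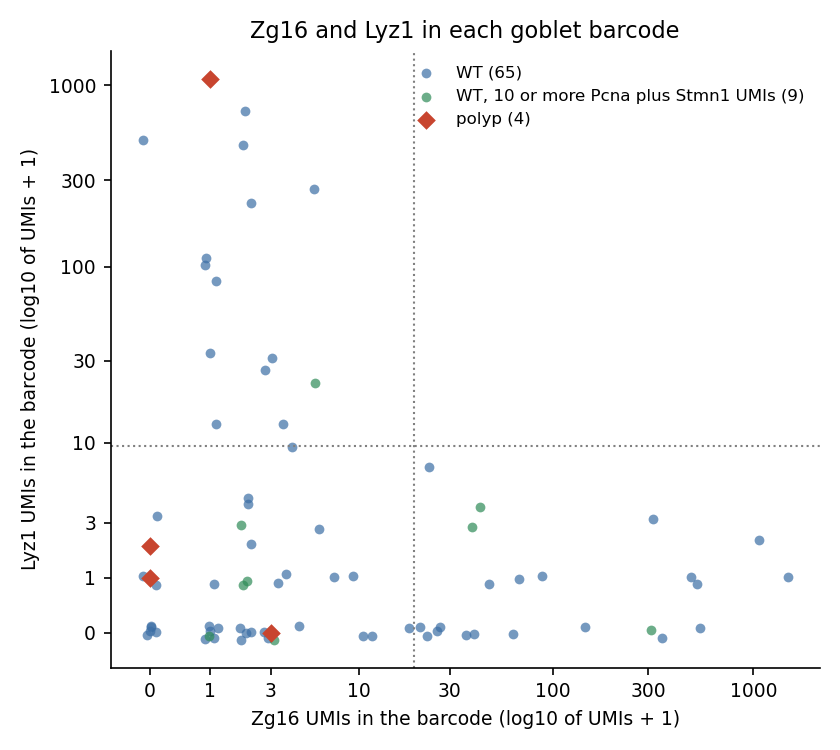
Zg16 against Lyz1 UMIs in each of the 74 WT and 4 polyp goblet barcodes (log10 of UMIs + 1, slightly jittered for WT), with dotted lines at 20 Zg16 and 10 Lyz1 UMIs. The upper right field is empty; the 9 green WT points with many Pcna and Stmn1 UMIs include the acinar-rich barcode with 297 Zg16 UMIs.

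The Lyz1 set carried Paneth-type products beside goblet products. Lyz1, lysozyme, had 13 to 725 UMIs there (median 92), and Defa24, a defensin, was at 52895 CPM against 681 CPM in the rest, but 5 of the 14 barcodes held 1033 to 5017 Defa24 UMIs and the other 9 held 0 to 528. Itln1 had 24 to 342 UMIs (median 120), 13.9 (12.7–15.3) times the level of the rest, Reg4 was found in 14 of 14 barcodes at 20.8 times. Of goblet products that the gate did not use, Guca2a had 13 to 73 UMIs (median 40.5) and a ratio of 2.01, and Spink4 was at 1.78. The gate genes, whose presence the rule fixes, were at 0.868 (0.768–0.978) for Muc2, 0.869 for Tff3 and 0.546 for Fcgbp. Zg16 was 50.0-fold lower, Clca1 3.71-fold lower and Hes1 4.09-fold lower than in the rest, which includes the Zg16 set. Goblet barcodes outside the Zg16 set, the Lyz1 set among them, had 212 CPM of Zg16 and 217 CPM of Clca1. The Lyz1 set had 135 and 185 CPM. It had a median of 17299.5 UMIs and a median mitochondrial share of 2.64%. Barcodes with at least 10 Lyz1 UMIs outside the gate were 28, with a median of 2900 UMIs, of which 9 held Epcam and 5 a Muc2 UMI. Their Lyz1 was at 36837 CPM, Spink4 at 3343 CPM, Tff3 at 374 CPM, Muc2 at 49.1 CPM and Atoh1 at 0 UMIs. In the Lyz1 set Spink4 was at 54683 CPM, Tff3 at 17720 CPM, and Atoh1 was found in 10 of 14 barcodes. Defensin genes are near-identical copies among which counting can split reads, so single defensin values are uncertain.

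The Paneth list of the comparison with other Epcam-positive barcodes rested on this set. Of 10 measured genes 5 were higher and 3 lower, with a median log2 ratio of 1.81. With the 60 goblet barcodes under 10 Lyz1 UMIs alone, 1 of 9 was higher and 7 lower, the median was −2.27, and Defa17 turned from 16.9 to 0.205, while Itln1 was at 7.56 and Mmp7 at 29.3. With a looser gate (at least 2 Muc2 UMIs, and 5 of Tff3 and Fcgbp together) 9 of 10 were higher, and with barcodes averaged in place of summed 4 were higher and 4 lower, with a median of −0.18.

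The Zg16 set carried 24 to 1611 Zg16 UMIs (median 65), and the 7 highest of them held 85.6% of the Zg16 UMIs of the 72 barcodes. Clca1 was found in 18 of its 20 barcodes at 7.07 (5.92–8.48) times the rest, and S100a6 was at 8.95, Krt20, a keratin of mature surface epithelium, at 3.76 (1.69–8.63) and Lypd8 at 2.51. Muc2 was at 1.54, Tff3 at 1.54 and Fcgbp at 1.59. Lyz1 was 40.2-fold, Itln1 27.5-fold and Guca2a 2.49-fold lower than in the rest, which includes the Lyz1 set. Goblet barcodes outside the Lyz1 set, the Zg16 set among them, had 73.9 CPM of Lyz1, 658 CPM of Itln1 and 1183 CPM of Guca2a. The Zg16 set had 83.8, 124 and 694 CPM, so its Lyz1 was not low against them. The set had a median of 15967 UMIs and a median mitochondrial share of 11.7%. Because Zg16 is also an acinar gene, its UMIs were set against those of the other acinar genes: 0.0488 Zg16 UMIs per acinar UMI in T cells, 0.0534 in other Epcam-positive barcodes, 0.0635 in the acinar-rich goblet barcode, and 0.16 to 42.4 (median 1.81) in the Zg16 set. The acinar share of UMIs was 0.296% in the Zg16 set and 0.257% in goblet barcodes outside it. Goblet barcodes outside the set had 0.0824 Zg16 UMIs per acinar UMI. The set was chosen on Zg16, which fixes the order of these ratios, and the part of acinar RNA in Zg16 was not tested.

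The 8 barcodes with Pcna and Stmn1 had 21850 to 32471 UMIs (median 29340.5), a depth that a minimum in raw UMIs favours, and 6 held the proliferation marker Mki67. Pclaf was at 83.0 times the rest, Hells at 18.5 and Cd74 at 3.33. The crypt gene Olfm4 was at 16.8 (11.4–25.5), but 2 of the 8 barcodes held 79 and 53 of its 140 UMIs there and the others 0 to 3. Those 2 barcodes were also poor in goblet products, with 5 and 6 Muc2 and 30 and 22 Spink4 UMIs. Over all 8 barcodes goblet products were lower than in the rest, Muc2 5.02-fold (378 against 1896 CPM), Tff3 2.80-fold, Spink4 2.51-fold, Guca2a 3.15-fold and Ccl6 11.4-fold. The gate asks for raw UMIs of Muc2, Tff3 and Fcgbp, so deep barcodes can pass it at lower CPM than shallow ones. The part of the gate in the Muc2 and Tff3 values was not tested. Over all 74 goblet barcodes 1 of 20 proliferation genes was higher than in other Epcam-positive barcodes and 1 lower. The shares of all genes were 10.8% higher and 12.0% lower.

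Over the 48 barcodes with at least 10000 UMIs, levels of the genes that describe these sets were compared pairwise. Spearman's rho was 0.67 for Lyz1 with Itln1 (Pearson 0.78), 0.61 for Zg16 with Clca1 (0.72), 0.60 for Zg16 with Lypd8 (0.64), 0.75 for Guca2a with Guca2b (0.75), 0.71 for Guca2a with Ccl9 (0.67) and −0.39 for Guca2a with Zg16 (−0.34). The points are barcodes of 1 library that share its free RNA and each barcode's total, so the values are a description. Total UMIs and mitochondrial share had a rho of −0.52 over the 74 barcodes.

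A further 12 WT barcodes met the gene gate and failed only on the mitochondrial limit, with shares of 25.6 to 63.2% (median 36.5%) and a median of 4711 UMIs. Their Muc2 was at 1450 CPM against 1528 CPM in the kept goblet barcodes, and Fcgbp at 7024 against 6193 CPM. Spink4 was at 5418 against 34788 CPM, Agr2 at 1247 against 11698 CPM, Guca2a at 491 against 1403 CPM and Lyz1 at 24.0 against 2370 CPM. With no mitochondrial limit goblet barcodes numbered 86 in WT and still 4 in the polyp. The limit alone left out 4549 WT and 3453 polyp barcodes, beside 3252 and 8460 kept. Goblet barcodes were 12 of those 4549 and 0 of those 3453, so their share in either library was lower without the limit.

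The 4 polyp goblet barcodes were unlike each other. They held 37902, 15408, 12052 and 3034 UMIs, and are given in that order. Muc2 had 75, 26, 8 and 3 UMIs, Tff3 540, 235, 12 and 69, Fcgbp 131, 60, 1 and 32, and Spink4 1027, 811, 258 and 96. Agr2 had 259, 242, 5 and 10 UMIs and Guca2a 3, 0, 1 and 4. Clca1 had 202, 0, 1 and 2 UMIs, all but 3 of them in the deepest barcode. The one of 12052 UMIs held 1083 Lyz1, 229 Itln1 and 3995 Defa24 UMIs, against 0 to 2 Lyz1 UMIs in the others, and only 1 Fcgbp UMI. Epcam was found in all 4, at 51, 22, 5 and 2 UMIs. The gastric trefoil Tff2 had 1111, 53, 63 and 65 UMIs, a summed level of 18890 CPM, against 20428 CPM in polyp T cells.

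Of the leading WT genes some were also far above the other Epcam-positive barcodes of the polyp library and others were not. In the polyp Spink4 was at 32049 CPM in goblet barcodes and 1919 CPM in other Epcam-positive barcodes, a ratio of 16.7 (16.0–17.4), against 272 in WT. Agr2 was at 7544 against 5785 CPM, a ratio of 1.30 (1.19–1.42), against 33.4 in WT. For both genes the level in goblet barcodes lay below that in WT (34788 and 11698 CPM), while the level in other Epcam-positive barcodes lay above that in WT (128 and 350 CPM). Guca2a was at 117 CPM (8 UMIs) against 0.108 CPM (5 UMIs), and 1403 CPM in WT goblet barcodes. Ccl6 was at 994 against 2.62 CPM. Ano7 at 0.853 (0.0216–4.77), Pdia5 at 1.31 (0.271–3.85) and Rap1gapos at 1.96 (0.237–7.12) had 1 to 3 UMIs in polyp goblet barcodes and intervals that span 1. With 4 barcodes the polyp values were not counted across genes, and no polyp value was compared with WT by a test.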

How the data were processed

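Single-cell 3' RNA was measured in 1 WT and 1 polyp library, each pooled from 3 mice. The authors deposited UMI counts per gene and barcode. The submitters' processing notes name Cell Ranger 3.0.0 and mm10, whereas the deposited matrix header names Cell Ranger 5.0.0; which version made the counts is not given in the sources used here. The deposited values were used as raw counts. The matrices held 9950 (WT) and 14327 (polyp) barcodes with 39222238 and 63566462 UMIs, and kept barcodes had medians of 2431 and 2284.5 UMIs. They list 32285 genes, 40 symbols occur more than 1 time, and positions come from GENCODE M21 (32158 matched).

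Barcodes with at least 500 UMIs, 250 genes and at most 25% mitochondrial UMIs were kept. UMIs were summed over goblet and over other Epcam-positive barcodes and scaled to CPM. Ratios have exact conditional binomial 95% intervals. A gene was called past the fold at 2-fold or more, with an interval clear of 1 and at least 20 UMIs over both sets; log2 ratios had 0.5 UMIs added. A fold against 0 UMIs used a floor of 3 counts over the group. With 1 library per group no test was made, no p-value is given, and intervals cover counting error only. Named genes were the 25 highest and 15 lowest by interval bound among those with at least 50 UMIs and present in 10% of barcodes of the higher set, plus members of gene lists. The members and lists were chosen with earlier results of these data known. Shares were compared after thinning to 1000 UMIs (seed 1). Doublets were not removed from the main counts; removing the highest scrublet scores (scanpy 1.11.5, 0.8% per 1000 barcodes) was an alternative, because scrublet's own threshold called 0 barcodes. The interval method recovered known folds in data simulated with counting error only. That is the error the intervals assume, and variation between barcodes was not simulated. The planned count of protein composition was not run, and the planned comparison of polyp with WT goblet barcodes across genes was not made with 4 polyp barcodes. Python 3.11.15, numpy 2.4.6, scipy 1.17.1, pandas 2.3.3 and matplotlib 3.10.9 were used.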

Additional observations from a re-analysis of the deposited data

Results flagged for a closer look

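Some goblet genes pointed in opposite directions in the 2 libraries when set against other Epcam-positive barcodes of the same library; the differences between libraries were not tested. Dnajc10, an ER disulfide reductase, was at 7.57 in WT and at 0.458 (0.168–0.998) in the polyp. Of its 6 UMIs in polyp goblet barcodes, 5 lay in the same barcode. Goblet barcodes held it at 217 (WT) against 87.7 CPM (polyp), other Epcam-positive barcodes at 28.6 against 191 CPM. Selenok, an ER membrane selenoprotein, was at 1.74 in WT and 0.608 (0.347–0.987) in the polyp. Of its 16 polyp goblet UMIs, 10 lay in the same barcode. Its levels, in the same order, were 418 against 234 CPM and 240 against 385 CPM. For both genes the comparison barcodes thus differed between the libraries as well as the goblet barcodes.

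The defensins Defa21, Defa22 and Defa30 were lower in WT goblet barcodes than in the others, or had 0 UMIs there, and higher in the polyp ones. Defa21 had 101 UMIs in polyp goblet barcodes and 1 in the other polyp barcodes, a ratio of 68661 (12047–2738475). Defa22 had 29 UMIs against 0, at least 6572-fold higher. Defa30 had 1256 UMIs and a ratio of 673 (622–729), against 0.758 in WT. All of these polyp UMIs lay in the barcode of 12052 UMIs that also held 1083 Lyz1 UMIs, so each value rests on 1 barcode.

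The 12 WT barcodes that met the goblet gene gate above the mitochondrial limit are not among the 74 that the main comparisons use; the polyp library had 0 such barcodes.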

How the results depend on the processing

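No paired analysis was possible because each group had 1 library. Goblet barcodes numbered 53 to 86 in WT and 4 or 6 in the polyp under 5 of the 6 alternative filters and gates; the stricter gate (Muc2 at least 6 UMIs, Tff3 and Fcgbp at least 20) left 67 and 2, and the looser gate (at least 2 and 5) gave 79 and 6. Thinning every barcode to 1000 UMIs left 362 genes higher and 377 lower of 4923 measured, of which 217 and 308 were also called before. Elsewhere the counts ran from 925 (relative to the median gene) to 1551 higher and from 1243 to 1728 lower (barcodes averaged in place of summed). Against other barcodes with at least 5 Epcam UMIs and no Ptprc UMI, a choice made after seeing the data, the medians of these lists changed sign: T and NK cell to 0.43, myeloid and mast to 2.09 and pancreatic acinar to 1.86 on the log2 scale. Further medians crossed 0. Under that comparison they were erythroid (−0.91 to 0.37) and rRNA-repeat transcripts (−0.34 to 0.92, and 0.33 with at least 2 Epcam UMIs). Under thinning they were Notch response (−0.49 to 1.55), type 2 cytokine (−1.67 to 0.51), crypt base (−0.29 to 0.33, and 0.13 with averaging) and regional factors (−0.04 to 0.47, and 3 other settings). Without the deepest 10% of goblet barcodes proliferation went from 0.52 to −0.07. With averaging Paneth went from 1.81 to −0.18 and ion transport from 0.09 to −0.15 (−0.08 relative to the median gene). Without Lyz1-rich goblet barcodes Paneth was −2.27. With the goblet barcodes under 10 Lyz1 UMIs alone, also chosen after seeing the data, the Defa17 ratio was 0.205. Of the other ratios of named genes, 668 kept their direction and call and 9 lost the call, all 9 under thinning. The 6 alternatives planned for polyp over WT goblet barcodes were not run, since the polyp held 4. With no UMI minimum 1422 genes were higher and 1426 lower, so the 20-UMI minimum left out genes that would have been called higher.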
